A study of Homo sapiens with 15 samples.

Results

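Cells edited in NF1 with guides 1 and 2 together were compared with cells edited with guide 2 alone. The comparison uses 6 of the 15 RNA libraries of the series, the 3 labelled for both guides and the 3 labelled for guide 2, chosen by their column names in the deposited count table. All libraries come from MCF-10A, an immortalised, non-tumorigenic human mammary epithelial line, and from poly(A) RNA. The 5 genotypes have 3 biological replicates each. They are the parental line, an empty-vector control, and 3 NF1 mutants obtained with guide 1, with guide 2, and with the pair of guides. Every genotype was untreated and was grown in the same MEC medium, which holds horse serum, EGF, hydrocortisone, cholera toxin and insulin. The labels give neither how the guides were delivered nor whether a genotype is a pool of cells or 1 clone, so the added guide and the line that carries it cannot be told apart. They also do not say that replicates came from separate cultures, so p-values measure the spread between these libraries.

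The NF1 product neurofibromin is a GTPase-activating protein that returns RAS to its inactive, GDP-bound form, and its loss raises signalling through RAF, MEK and ERK. MCF-10A cells have a basal-like epithelial identity: they express TP63, basal keratins, and the cadherins and desmosomal cadherins that hold epithelial sheets together. This epithelial programme can be lowered while mesenchymal genes such as those for fibronectin, decorin and periostin are raised, through repressors such as ZEB1 that bind a DNA motif called the E-box.

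Guide 2 replicate 2 stood apart from the other libraries compared and is given separately throughout. Total counts of the 6 libraries ranged from 46129559 to 69186523, and TMM scaling factors from 0.9875 to 1.0093. Mitochondrial genes took 3.202 to 4.23% of the counts. CPM are counts scaled to the library total, while log2 CPM were scaled to the TMM-adjusted total of the tested genes. Across 17457 tested genes, log2 CPM of replicate 2 had a Pearson correlation of 0.947 with each of guide 2 replicates 1 and 3. With the both-guide libraries it was 0.967 to 0.968. Replicates 1 and 3 had 0.995 with each other. These correlations are across genes of single libraries, and genes are not independent replicates. Replicate 2 was thus closer to the both-guide libraries than to the 2 libraries that share its label.

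NF1 RNA did not differ between the groups beyond their spread. NF1 (ENSG00000196712, chr17:31094927-31382116, plus strand, GRCh38) had 28.9, 29.4 and 26.04 CPM with both guides and 26.96, 31.4 and 29.8 CPM with guide 2. The ranges overlap, and the value of replicate 2 (31.4 CPM) was the highest of the 6. The means were 28.1 ± 1.81 and 29.4 ± 2.27 CPM (SD, n = 3 each), and the two-sided exact permutation test gave p = 0.4, where 3 against 3 cannot go below 0.1. In edgeR the log2 fold change was -0.07 (SE 0.08801, adjusted p 0.9702), with a 95% interval from -0.27 to 0.12. All 6 compared libraries lay below the 6 unedited ones, which had 115.33 to 158.73 CPM.

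In the fit of all 15 libraries, 26 genes changed between both guides and guide 2, 18 higher and 8 lower with both guides. That is 0.149% (0.103% higher and 0.0458% lower) of the 17457 genes tested by edgeR's quasi-likelihood test at a Benjamini-Hochberg adjusted p under 0.05. At an unadjusted p under 0.05 there were 1012. In all 26 the 3 both-guide libraries did not overlap the 3 guide 2 libraries, replicate 2 included. Of all tested genes, 10.4% did not overlap in this way, 6.15% higher and 4.23% lower. Of the 26, 11 had an average log2 CPM of at least 1, as the rule for named genes asks. The other 15 were lower on average and are named after their values were seen. Leaving out any compared library other than guide 2 replicate 2 kept 2 or 3 of the 26. C9orf64 and JAM3 kept the call in each such fit, and DENND2D also did without guide 2 replicate 3. Such a fit leaves 2 libraries in 1 group, whose spread is assumed to be that of the others.

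C9orf64 had the lowest adjusted p. It encodes an enzyme that salvages the queuine base used in transfer RNA, and lies at chr9:83938311-83956986 on the minus strand. Its CPM were 2.38, 2.58 and 3.06 with both guides and 0.126, 0.0906 and 0.0578 with guide 2. The 3 guide 2 libraries were alike and near the level of 3 counts (0.0434 to 0.0544 CPM). The means of 2.68 ± 0.345 and 0.0916 ± 0.0343 CPM (SD, n = 3 each) differ 29.2-fold, and the fitted log2 fold change was 4.85 (SE 0.301, adjusted p 1.05e-05). The guide 1 libraries had 0.0191, 0.03799 and 0.0158 CPM, at most 3 counts each.

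JAM3 encodes a junctional adhesion molecule of the immunoglobulin superfamily and lies at chr11:134068925-134152001. It had 6.005, 7.02 and 6.72 CPM with both guides and 1.25, 0.942 and 1.36 CPM with guide 2. Replicate 2 was the lowest library, and no both-guide value came near the guide 2 range. The means were 6.58 ± 0.523 and 1.18 ± 0.215 CPM (SD, n = 3 each), a 5.57-fold difference with a log2 fold change of 2.46 (SE 0.243, adjusted p 0.00137). Exons of JAM3 overlap those of NCAPD3, and whether counting used strand is not given in the sources used here.

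PLEKHA7, ICAM1, IGSF9B and SIPA1L1 also rose, and PARVB fell. PLEKHA7, an adherens junction protein, had 53.5, 53.8 and 54.2 CPM with both guides and 33.8, 28.96 and 33.8 with guide 2 (log2 fold change 0.73, SE 0.1101, adjusted p 0.02596). The both-guide libraries differed by under 1 CPM, and replicate 2 was the lowest of the 6. ICAM1, an adhesion receptor bound by leukocyte integrins, had 14.6, 13.5 and 14.6 CPM against 6.49, 4.205 and 7.08 CPM (log2 fold change 1.25, SE 0.1902, adjusted p 0.02596). IGSF9B, an immunoglobulin-family adhesion protein, had 28.3, 27.8 and 34.7 CPM against 14.6, 14.4 and 16.3 CPM (log2 fold change 0.99, SE 0.157, adjusted p 0.0285). Replicate 2 was the lowest of the 6 libraries for ICAM1 and IGSF9B. SIPA1L1, a GTPase-activating protein for Rap, had the smallest change of the 26, with 92.3, 96.2 and 89.4 CPM against 68.3, 73.2 and 73.3 CPM (log2 fold change 0.36, SE 0.056005, adjusted p 0.02596). PARVB, a focal adhesion protein that binds integrin-linked kinase, fell: 11.9, 12.7 and 14.01 CPM with both guides and 25.7, 30.7 and 25.7 with guide 2 (log2 fold change -1.09, SE 0.155, adjusted p 0.0249).

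**Figure D1:**
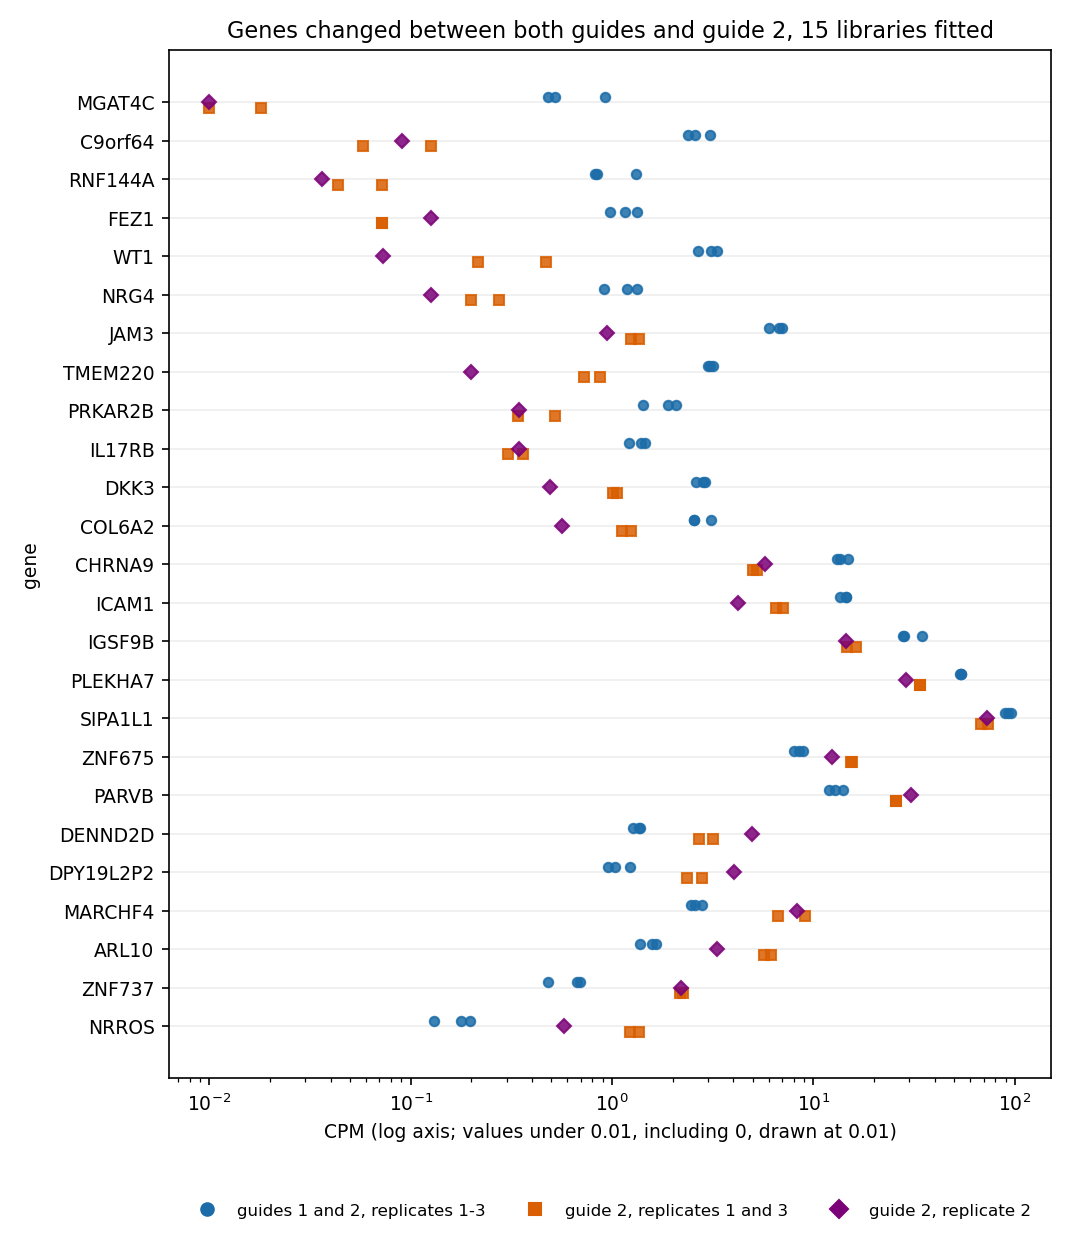
CPM (log axis) of 25 of the 26 genes called in the fit of 15 libraries, 1 point a library: circles for both guides, squares for guide 2 replicates 1 and 3, diamonds for guide 2 replicate 2. In every gene drawn, all 3 circles are on one side of the squares and the diamond: above them in the upper 17 genes and below them in the lower 8.

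CHRNA9, IL17RB, NRG4, DKK3 and COL6A2 rose as well. CHRNA9, a nicotinic acetylcholine receptor subunit, had 13.5, 14.8 and 13.1 CPM with both guides and 5.22, 5.76 and 5.001 CPM with guide 2, a mean difference of 2.59-fold (log2 fold change 1.37, SE 0.218, adjusted p 0.0289). IL17RB, the receptor for interleukin-25, had 1.45, 1.39 and 1.22 CPM against 0.361, 0.344 and 0.304 CPM (log2 fold change 1.99, SE 0.315, adjusted p 0.0285). NRG4, a ligand of the EGF receptor relative ERBB4, had 1.19, 1.34 and 0.912 CPM against 0.199, 0.127 and 0.275 CPM (log2 fold change 2.48, SE 0.381, adjusted p 0.02596). Replicate 2 was within the range of replicates 1 and 3 for IL17RB, just above it for CHRNA9 and below it for NRG4. DKK3, a secreted protein of the dickkopf family, had 2.905, 2.83 and 2.61 CPM against 1.01, 0.489 and 1.06 CPM (log2 fold change 1.69, SE 0.296, adjusted p 0.0493). COL6A2, a chain of collagen VI, had 3.09996, 2.55 and 2.56 CPM against 1.12, 0.562 and 1.24 CPM (log2 fold change 1.47, SE 0.257, adjusted p 0.0493). Replicate 2 had the lowest value of both, so that it lay farther from the both-guide libraries than replicates 1 and 3 did.

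A further 6 genes that rose were low in guide 2 cells. WT1, a zinc finger transcription factor, had 3.34, 2.67 and 3.11 CPM with both guides and 0.4697, 0.0725 and 0.217 CPM with guide 2 (12.02-fold by means, log2 fold change 3.57, SE 0.621, adjusted p 0.0493). FEZ1, an adaptor for kinesin transport, had 0.976, 1.34 and 1.16 against 0.0723, 0.127 and 0.0723 CPM (log2 fold change 3.65, SE 0.5503, adjusted p 0.02596). RNF144A, a ubiquitin ligase, had 1.32, 0.8201 and 0.8401 against 0.0723, 0.0362 and 0.0434 CPM (log2 fold change 4.23, SE 0.6796, adjusted p 0.0493). The guide 2 values of FEZ1 and RNF144A rest on a few counts each. MGAT4C, an N-glycan glycosyltransferase, had 0.5203, 0.927 and 0.483 CPM with both guides, and guide 2 held 1 count in replicate 1 and none in replicates 2 and 3. Over both-guide libraries and guide 2 replicates 1 and 3, with replicate 2 left out, the ratio of count rates was 81.1 (95% interval 14.2 to 3234, counting error only). The edgeR fit of all 15 libraries gave a log2 fold change of 6.37 (adjusted p 0.0249), which is no bound at so few counts. PRKAR2B, a regulatory subunit of protein kinase A, had 1.91, 2.07 and 1.43 against 0.343, 0.344 and 0.5203 CPM (log2 fold change 2.14, SE 0.355, adjusted p 0.0364). TMEM220 had 3.01, 3.17 and 3.06 against 0.723, 0.199 and 0.867 CPM (log2 fold change 2.34, SE 0.385, adjusted p 0.0358), with replicate 2 the lowest.

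Besides PARVB, 7 genes fell with both guides. MARCHF4, a membrane-bound ubiquitin ligase, had 2.58, 2.48 and 2.81 CPM with both guides and 9.05, 8.301 and 6.68 CPM with guide 2 (log2 fold change -1.62, SE 0.235, adjusted p 0.0249). ARL10, a small GTPase related to ARF, had 1.58, 1.37 and 1.66 against 5.65, 3.33 and 6.19 CPM (log2 fold change -1.73, SE 0.238, adjusted p 0.0249). NRROS, which binds latent TGF-beta in other cell types, had 0.1301, 0.196 and 0.179 against 1.23, 0.57998 and 1.36 CPM (log2 fold change -2.64, SE 0.326, adjusted p 0.0117). Replicate 2 was the guide 2 library nearest to the both-guide ones in ARL10 and NRROS, and was within the guide 2 range in MARCHF4. DENND2D, an exchange factor for Rab GTPases, had 1.37, 1.37 and 1.27 against 3.16, 4.97 and 2.703 CPM (log2 fold change -1.44, SE 0.212, adjusted p 0.0258), with replicate 2 the highest. ZNF675 had 8.45, 8.84 and 8.03 against 15.4, 12.3 and 15.5 CPM (log2 fold change -0.78, SE 0.113, adjusted p 0.0249), and ZNF737 0.672, 0.481 and 0.697 against 2.19, 2.19 and 2.24 CPM (log2 fold change -1.85, SE 0.293, adjusted p 0.0285). Both are KRAB zinc finger genes of chromosome 19 with close relatives, and DPY19L2P2 is a pseudogene of DPY19L2, so counting could split or share their reads. DPY19L2P2 had 0.954, 1.03 and 1.23 against 2.35, 4.02 and 2.79 CPM (log2 fold change -1.51, SE 0.2602, adjusted p 0.0493).

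Without guide 2 replicate 2, 327 genes changed, 175 higher and 152 lower with both guides, or 1.83% (0.98% and 0.852%) of 17849 tested genes. At an unadjusted p under 0.05 there were 2280. All 26 genes above were among the 327. Replicate 2 was set apart because earlier results showed it far from replicates 1 and 3, so these calls and their p-values depend on that choice. The other libraries mattered too: the count was 28 when guide 2 replicate 1 was also left out, 48 when replicate 3 was, and 117, 148 and 153 without both-guide replicate 1, 2 or 3. Where 1 guide 2 library was left, it was assumed to vary like the other groups.

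The 10 genes that rose most were all at most 1.86 CPM in guide 2 replicates 1 and 3. CDH1, which encodes E-cadherin (chr16:68737225-68835548), had 23.4, 17.3 and 14.8 CPM with both guides and 0.0361 and 0.0434 CPM in guide 2 replicates 1 and 3, the last 2 values from 5 counts in all. Guide 2 replicate 2 had 91.4 CPM, above all both-guide libraries. Without replicate 2 the log2 fold change was 8.77 (SE 1.64, adjusted p 0.0156); with it the value turned to -0.71 (adjusted p 0.986). FAT2, an atypical cadherin, had 19.9, 18.1 and 12.9 CPM with both guides against 0 and 0.0289 CPM, and 193 CPM in replicate 2. The ratio of count rates to replicates 1 and 3, which held 2 counts, was 1044 (95% interval 289 to 8626, counting error only), with an edgeR adjusted p of 0.0222. ESRP1, an epithelial splicing regulator, had 13.7, 11.98 and 9.06 CPM against 0.0723 and 0.0289 CPM, and 86.6 CPM in replicate 2 (log2 fold change 7.84, SE 1.63, adjusted p 0.0263 without it). TP63, the transcription factor that maintains basal epithelium, had 10.99, 9.97 and 7.83 CPM against 0.0542 and 0.0723 CPM, and 75.8 CPM in replicate 2 (log2 fold change 7.17, SE 1.51, adjusted p 0.0275 without it). In these 4 genes both-guide cells thus held an intermediate level, between 8.78 and 20.3% of replicate 2, and the order of the groups depends on which guide 2 library is taken.

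COL17A1, a hemidesmosome collagen, had 156, 136 and 126 CPM with both guides, 1.39 and 1.86 CPM in guide 2 replicates 1 and 3, and 553 CPM in replicate 2 (log2 fold change 6.40, SE 1.06, adjusted p 0.007302 without it). TSPAN18, a tetraspanin, had 2.97, 3.08 and 2.75 CPM with both guides, 1 count in replicates 1 and 3 together and 8.45 CPM in replicate 2. RNASE7, an antimicrobial ribonuclease of skin, had 1.73, 1.32 and 1.63 CPM with both guides, no count in replicates 1 and 3 and 1.96 CPM in replicate 2. Set against 3 counts over replicates 1 and 3 together, RNASE7 was at least 64.3-fold higher with both guides (edgeR adjusted p 0.0306), and TSPAN18 had a ratio of count rates of 365 (95% interval 65.3 to 14461, counting error only) (adjusted p 0.00957). Over the 10 genes the both-guide mean was 8.78 to 82.6% of the replicate 2 value, with a median of 20.8%. All 10 lost the call when some further library was left out as well.

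The desmosomal cadherins DSC2, DSC3 and DSG3 belong to the desmosomal cadherin cluster of chromosome 18 and all rose without replicate 2, so the bases before their first exons are shown. They were taken from the RefSeq promoter table for GRCh38.p14, end before the first GENCODE exon of the gene, and run 5′ to 3′ on the strand of the gene. Capitals mark the E-box CACCTG or its reverse complement CAGGTG. The windows are chr18:31102523-31102671 for DSC2 (minus strand), chr18:31042816-31042992 for DSC3 (minus strand) and chr18:31447491-31447740 for DSG3 (plus strand).
DSC2: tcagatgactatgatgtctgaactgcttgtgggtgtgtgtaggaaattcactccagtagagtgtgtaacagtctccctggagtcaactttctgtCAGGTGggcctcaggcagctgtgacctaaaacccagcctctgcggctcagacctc
DSC3: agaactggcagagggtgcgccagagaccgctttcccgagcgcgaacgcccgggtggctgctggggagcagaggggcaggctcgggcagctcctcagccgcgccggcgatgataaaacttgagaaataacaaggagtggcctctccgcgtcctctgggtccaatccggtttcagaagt
DSG3: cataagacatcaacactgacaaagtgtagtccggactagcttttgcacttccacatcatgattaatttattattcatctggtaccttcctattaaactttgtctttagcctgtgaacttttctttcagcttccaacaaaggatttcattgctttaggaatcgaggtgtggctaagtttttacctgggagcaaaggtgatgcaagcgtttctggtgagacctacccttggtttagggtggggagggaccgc
The DSC2 window has 1 E-box of this form, and those of DSC3 and DSG3 have none. Other forms of the E-box were not marked or counted. Among 35114 RefSeq promoters, 11.5% hold this form in a window of the length used for DSC2. The shares were 13.5% for the length of DSC3 and 17.5% for that of DSG3. A match describes letters only, and no match says only that they are not in this window.

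In these 3 genes guide 2 replicates 1 and 3 were below the both-guide libraries and replicate 2 above them. DSC3 had 38.2, 32.5 and 28.7 CPM with both guides, 0.632 and 0.593 CPM in guide 2 replicates 1 and 3, and 156 CPM in replicate 2. DSG3 had 23.1, 19.98 and 12.995 CPM, 0.235 and 0.275 CPM and 91.7 CPM in the same order. DSC2 had 20.2, 18.1 and 15.3 CPM, 0.542 and 0.6504 CPM and 21.6 CPM. Both-guide cells reached 21.2% of replicate 2 for DSC3 and 20.4% for DSG3, but 82.6% for DSC2, where replicate 2 was just above the both-guide range. Log2 fold changes without replicate 2 were 5.75 (SE 0.722, adjusted p 0.00135) for DSC3, 6.17 (SE 1.02, adjusted p 0.00731) for DSG3 and 4.88 (SE 0.628, adjusted p 0.00163) for DSC2. DSG2 of the same cluster did not pass the test, with 325, 313 and 293 CPM against 196 and 206 CPM (log2 fold change 0.62, SE 0.154, adjusted p 0.0608), and had 341 CPM in replicate 2. DSC1, DSG1 and DSG4 of the same cluster had at most 0.127 CPM in any compared library. These 4 neighbours were picked for their position, after their values were seen.

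**Figure D2:**
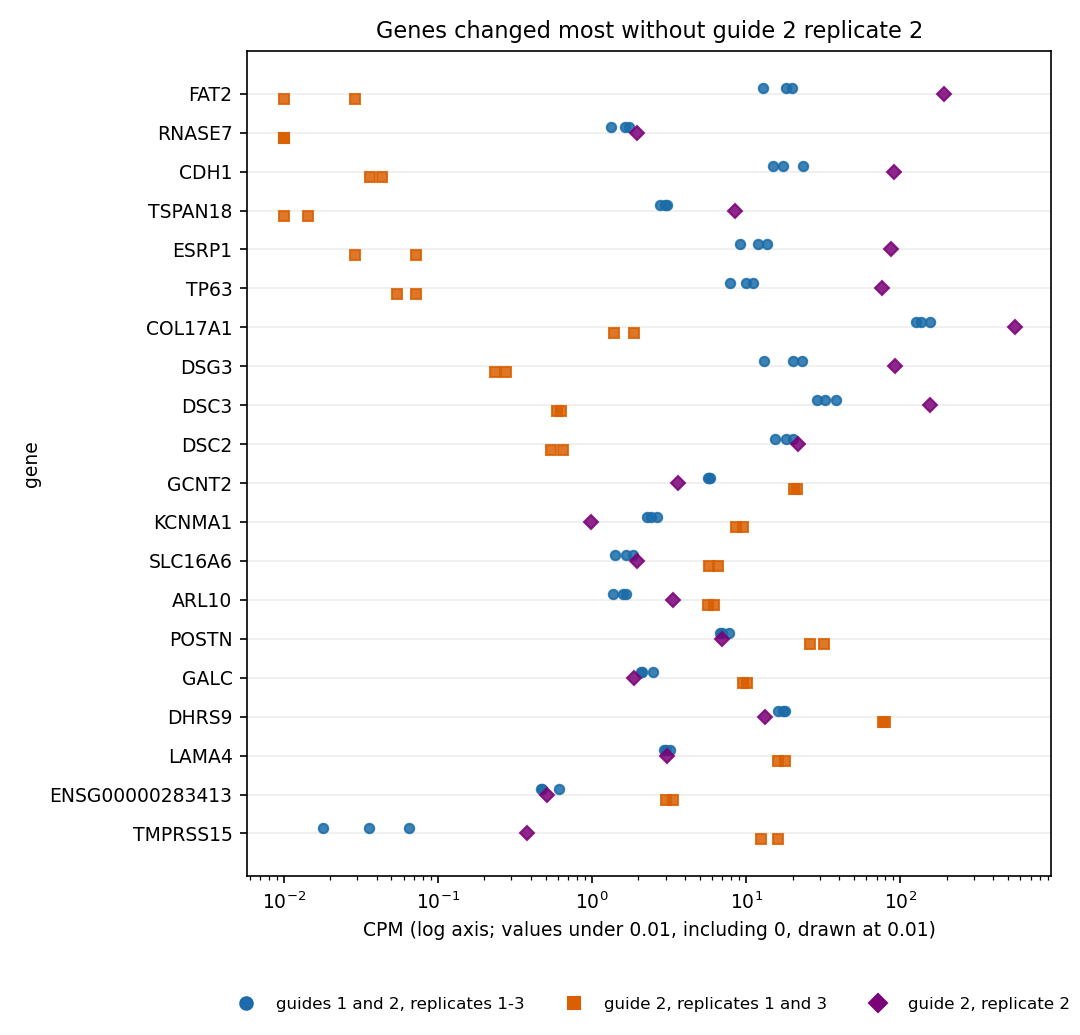
CPM (log axis; values under 0.01 drawn at 0.01) of the 10 genes highest and 10 lowest by log2 fold change among those called without guide 2 replicate 2, 1 point a library with circles for both guides, squares for guide 2 replicates 1 and 3 and diamonds for replicate 2. In the upper 10 genes the diamond, which the fit did not use, lies above the circles and the squares lie below them, at most at 1.86 CPM; in the lower 10 the diamond and the circles lie below the squares.

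In the 10 genes that fell most, guide 2 replicates 1 and 3 were above the other libraries compared, replicate 2 included. POSTN, the matrix protein periostin, had 7.74, 6.77 and 6.99 CPM with both guides, 31.8 and 26.1 CPM in replicates 1 and 3, and 6.94 CPM in replicate 2, within the both-guide range (log2 fold change -2.02, SE 0.355, adjusted p 0.0112). LAMA4, a laminin chain, had 3.21, 2.92 and 3.02 CPM, 16.2 and 17.8 CPM and 3.08 CPM in the same order (log2 fold change -2.48, SE 0.305, adjusted p 0.00122), replicate 2 again within the both-guide range. TMPRSS15, the protease enteropeptidase, was at 0.06503, 0.0357 and 0.0179 CPM with both guides, 12.4 and 16.1 CPM in replicates 1 and 3 and 0.381 CPM in replicate 2. Its ratio of count rates was 0.00262 (95% interval 0.000960 to 0.00571, counting error only), with an edgeR adjusted p of 0.00122.

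The others of these 10 genes had the same arrangement. GCNT2, a glycosyltransferase that branches the I antigen, had 5.61, 5.79 and 5.72 CPM with both guides, 21.3 and 20.5 CPM in replicates 1 and 3 and 3.59 CPM in replicate 2 (log2 fold change -1.88, SE 0.181, adjusted p 0.000241). KCNMA1, a calcium-activated potassium channel, had 2.25, 2.42 and 2.65, 9.48 and 8.63 and 0.979 CPM (log2 fold change -1.89, SE 0.327, adjusted p 0.00994). In both genes replicate 2 was below every both-guide library. DHRS9, a retinol dehydrogenase, had 15.998, 17.4 and 17.8, 76.7 and 79.3 and 13.2 CPM (log2 fold change -2.20, SE 0.412, adjusted p 0.0158). GALC, the lysosomal galactosylceramidase, had 2.49, 2.12 and 2.07, 9.58 and 10.2 and 1.87 CPM (log2 fold change -2.15, SE 0.341, adjusted p 0.006403). SLC16A6, a monocarboxylate transporter relative, had 1.41, 1.66 and 1.84, 5.75 and 6.56 and 1.96 CPM (log2 fold change -1.91, SE 0.378, adjusted p 0.0202). Replicate 2 was below the both-guide range in DHRS9 and GALC and just above it in SLC16A6. A lincRNA with no symbol on chromosome 5 (ENSG00000283413) had 0.477, 0.464 and 0.608, 3.32 and 3.02 and 0.507 CPM (log2 fold change -2.62, SE 0.323, adjusted p 0.00122). All 10 kept a negative sign with replicate 2 included, and 5 of the 10 lost the call when some further library was left out.

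Guide 2 replicate 2 was not in the fit that gave the 327 genes, although its own values led to leaving it out. The position of replicate 2 among these genes can be described. Of the 175 genes called higher, replicate 2 lay beyond the both-guide range in 90 (51.4%), within it in 13 (7.43%), between the groups in 37 (21.1%) and on the side of guide 2 replicates 1 and 3 in 35 (20%). Of the 152 called lower it lay beyond the both-guide range in 100 (65.8%), within it in 21 (13.8%), between in 19 (12.5%) and on the side of guide 2 in 12 (7.89%). The same position was taken over all tested genes in which the both-guide libraries did not overlap guide 2 replicates 1 and 3, called or not. Of 4003 such genes fitted higher, replicate 2 lay beyond the both-guide range in 62.7% and on the guide 2 side in 20.9%. Of 3635 fitted lower these were 67.8% and 16.2%. For genes higher, the share beyond the both-guide range was thus lower among called genes than over all such genes. For genes lower it was close, so that the position beyond that range is not particular to the called genes. Replicate 2 lay between the groups in 6.65% of all such genes fitted higher and 4.62% of those fitted lower. Both shares are below those among called genes. A call favours a wide gap between the groups, which leaves more room for a value to lie between them. No result about the called genes is thus drawn from these differences. On the guide 2 side, the share of genes called lower was below that of all such genes.

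**Figure D3:**
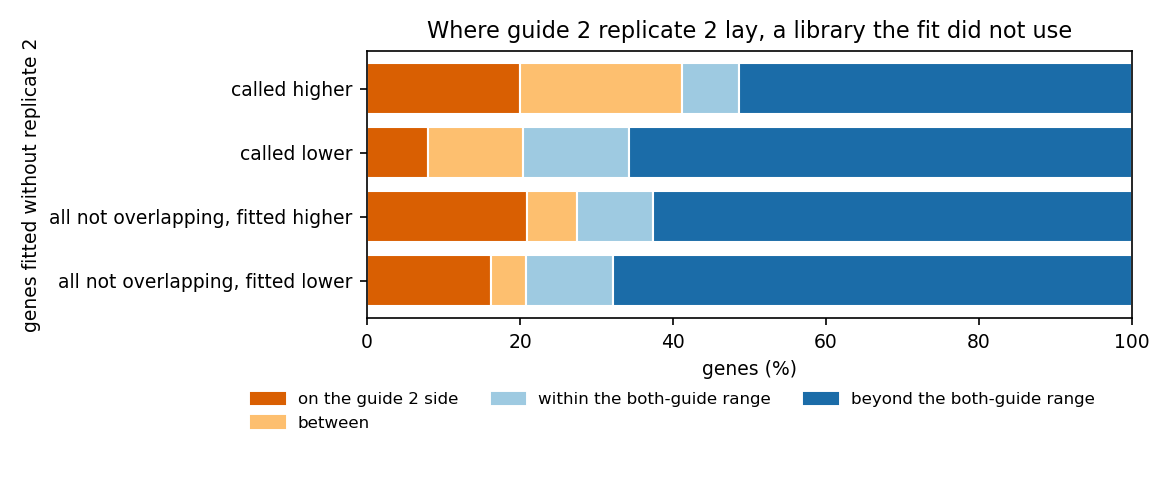
Share of genes (%, horizontal) by where the CPM of guide 2 replicate 2 lay, for genes called higher (175) and lower (152) without that library and for all tested genes in which the remaining libraries of the groups do not overlap, by the sign of their fitted difference. Dark blue marks genes in which replicate 2 was beyond the both-guide range, 51.4% of those called higher and 65.8% of those called lower, against 62.7% and 67.8% of all such genes.

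The distance of replicate 2 from its group was wider than these genes. It differed by a log2 difference of at least 1 from the mean of replicates 1 and 3 in 1898 of the 11731 genes with an average log2 CPM of at least 1 (16.2%), 706 higher (6.02%) and 1192 lower (10.2%). These are values of 1 library with no test. LAD1, an anchoring filament protein, had 105 CPM in replicate 2, 0.0181 and 0.0145 CPM in replicates 1 and 3 and 8.69, 7.24 and 6.97 CPM with both guides. MPZL2, an epithelial adhesion protein, had 102, 0.0542 and 0.0723 and 8.54, 7.83 and 6.04 CPM in the same order. PDE3B, a cyclic nucleotide phosphodiesterase, had 46.4, 0.0181 and 0.0289 and 0.1301, 0.0535 and 0.107 CPM. LAD1 and MPZL2 had intermediate both-guide levels like CDH1 but did not pass the test (adjusted p 0.05201 and 0.06104), while PDE3B was near 0 in both-guide cells as well. SPRR1B, a cornified envelope precursor, MFAP5 and PCLO also had their high level in replicate 2 (31.5, 26.4 and 24.4 CPM) and at most 0.784 CPM with both guides.

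At the other end, MMP2, a gelatinase of the matrix, had 7.304 CPM in replicate 2, 84.2 and 83.7 CPM in replicates 1 and 3 and 38.6, 41.2 and 44.2 CPM with both guides. CCN5, a secreted matricellular protein, had 1.47, 20.7 and 22.1 and 19.6, 17.9 and 19.1 CPM. PTGFR, a prostaglandin receptor, had 4.66, 43.2 and 63.8 and 26.9, 29.5 and 19.9 CPM. Here replicate 2 was below both groups, the both-guide values of CCN5 were near those of replicates 1 and 3, and none of the 3 genes passed the test between the groups without replicate 2. RBP4, COL28A1, MYBPC1, TMEM37, SDK1 and LPAR3 likewise had 0.145 to 1.03 CPM in replicate 2 against at least 1.39 CPM in every both-guide library.

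Some genes did not follow the order of CDH1, of which ITGB6, CASC19 and NEO1 were chosen after their values were seen. RAB25, a GTPase of epithelial recycling endosomes, had 0.715, 0.588 and 0.483 CPM with both guides and no count in replicate 1, no count in replicate 2 and 1 count in replicate 3 of guide 2. The 3 guide 2 libraries were alike, and the gene passed the test only without replicate 2 (adjusted p 0.0466 against 0.0936 with it). ITGB6, an epithelial integrin chain, had 38.2, 34.9 and 25.8 CPM with both guides, 0.994 and 1.27 CPM in replicates 1 and 3 and 29.9 CPM in replicate 2, within the both-guide range (log2 fold change 4.85, SE 0.877, adjusted p 0.0136). CASC19, a long non-coding RNA, had 38.5, 39.6 and 39.1, 2.08 and 2.11 and 8.86 CPM (log2 fold change 4.22, SE 0.512, adjusted p 0.00122), with replicate 2 between the groups. NEO1, the netrin receptor neogenin, had 49.5, 43.7 and 46.1, 15.5 and 16.4 and 16.8 CPM (log2 fold change 1.54, SE 0.315, adjusted p 0.0245). Like JAM3 and C9orf64, NEO1 had all 3 guide 2 libraries close together and below every both-guide library.

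Gene lists drawn up for this cell type gave 30 called genes without replicate 2, 23 higher and 7 lower, out of 317 tested members of 20 lists. Over all tested genes 1.83% were called, 0.98% higher and 0.852% lower, which is the background of each list count below. With replicate 2 only JAM3 and COL6A2 of these were called. The lists were written with earlier results of these data known, and they get counts and medians but no test. The median log2 fold change over all tested genes was -0.03 with replicate 2 and 0.01 without it. Lists of epithelial junction, basal and desmosome genes had the highest medians without replicate 2, besides the keratinocyte list, whose median depends on members at 0.

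Of 19 tested epithelial junction and polarity genes, 6 rose without replicate 2 and none fell: CDH1, CDH3, ESRP1, PRSS8, RAB25 and SPINT1. The median was 2.44, or 2.16 with genes at 0 in a group set at their bound, against -0.41 with replicate 2. CDH3, P-cadherin, had 81.03, 70.9 and 66.1 CPM with both guides, 16.6 and 15.8 CPM in replicates 1 and 3 and 153 CPM in replicate 2 (log2 fold change 2.16, SE 0.404, adjusted p 0.0156). PRSS8, the membrane protease prostasin, had 3.36, 2.87 and 3.25, 0.307 and 0.217 and 3.53 CPM (log2 fold change 3.59, SE 0.549, adjusted p 0.00556), and its inhibitor SPINT1 had 49.4, 47.3 and 49.4, 28.2 and 28.5 and 53.4 CPM (log2 fold change 0.78, SE 0.122, adjusted p 0.006100). All 3 had replicate 2 above the both-guide libraries. EPCAM did not pass the test: it had 3.32, 3.21 and 2.84 CPM with both guides, 2.62 and 2.67 CPM in replicates 1 and 3 and 103 CPM in replicate 2, so that both-guide cells were near replicates 1 and 3 for this epithelial adhesion molecule.

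Of 10 desmosome genes, DSC2, DSC3 and DSG3 rose and none fell (median 0.59). DSP, the plaque protein desmoplakin, had 336, 304 and 275 CPM with both guides, 103 and 116 CPM in replicates 1 and 3 and 815 CPM in replicate 2, just short of an adjusted p of 0.05 (log2 fold change 1.48, SE 0.353, adjusted p 0.0522). Of 18 basal genes, TP63, COL17A1 and LAMA3 rose (median 0.82). LAMA3, a chain of laminin-332, had 468, 400.4 and 357, 35.2 and 42.7 and 727 CPM in that order (log2 fold change 3.39, SE 0.633, adjusted p 0.0156). The basal keratins did not pass the test. KRT5 had 1125, 1025 and 985, 709 and 793 and 4997 CPM, and KRT14 had 34.6, 31.02 and 26.04, 18.9 and 17.4 and 1147 CPM. For both keratins the both-guide values were far nearer to replicates 1 and 3 than to replicate 2. Of 17 keratinocyte differentiation genes, TGM1, S100A8 and S100A9 rose. The median of that list, 2.76, came to 0.07 with its 10 members at 0 in a group set at their bound. S100A9, a calprotectin subunit, had 5.81, 4.33 and 3.75, 0.542 and 0.361 and 21.1 CPM (log2 fold change 3.36, SE 0.678, adjusted p 0.0225).

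**Figure D4:**
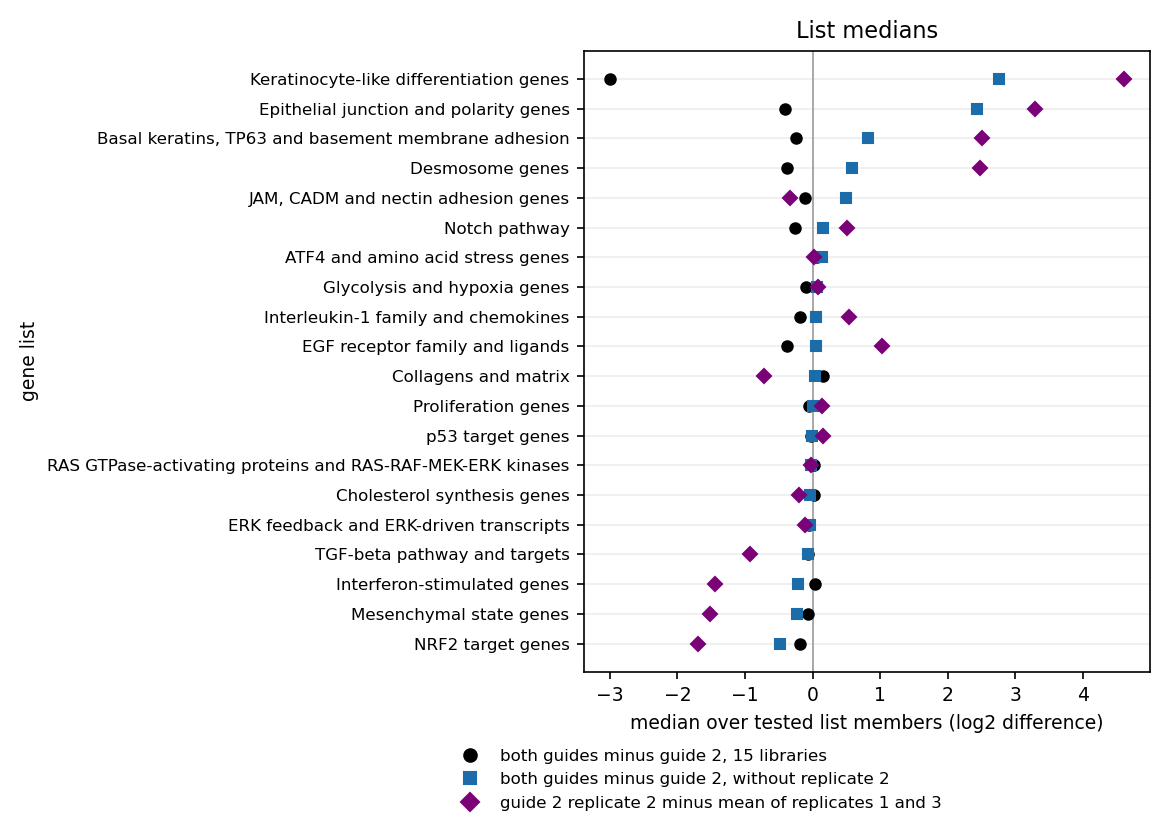
Median log2 difference over the tested members of 20 gene lists: both guides minus guide 2 with all libraries (circles) and without replicate 2 (squares), and guide 2 replicate 2 minus the mean of guide 2 replicates 1 and 3 (diamonds). The 4 lists at the top are of keratinocyte, epithelial junction, basal and desmosome genes. They lie at -0.24 or lower with replicate 2 and between 0.59 and 2.76 without it. The 2.76 of the keratinocyte list comes to 0.07 with its 10 members at 0 in a group set at their bound.

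Of 18 tested mesenchymal genes, ZEB1 and POSTN fell without replicate 2 and none rose (median -0.24). ZEB1, the E-box repressor, had 41.3, 41.8 and 38.2 CPM with both guides, 56.1 and 54.4 CPM in replicates 1 and 3 and 16.7 CPM in replicate 2 (log2 fold change -0.45, SE 0.0945, adjusted p 0.0263). FN1, fibronectin, had 9441, 9645 and 9263, 11621 and 13426 and 2818 CPM (log2 fold change -0.41, SE 0.191, adjusted p 0.394), and VIM, vimentin, had 1803, 1749 and 1834, 2107 and 2007 and 866 CPM (log2 fold change -0.20, SE 0.127, adjusted p 0.576). Neither passed the test, and replicate 2 was the lowest library for all 3. SNAI2, another E-box repressor, had 143, 147 and 140.3, 135 and 127 and 161 CPM, with replicate 2 the highest (log2 fold change 0.13, SE 0.0894, adjusted p 0.625). Among TGF-beta pathway genes, THBS1, thrombospondin-1, fell, and had 3626, 3652 and 3609, 5618 and 4919.6 and 2051 CPM (log2 fold change -0.54, SE 0.0809, adjusted p 0.00479). Of 19 matrix genes, COL6A2 and VCAN rose while COL16A1 and FBLN5 fell. FBLN5, an elastic fibre protein, had 12.8, 13.1 and 15.7, 42.4 and 39.7 and 9.23 CPM (log2 fold change -1.57, SE 0.191, adjusted p 0.00122). BST2, an antiviral membrane protein, was the only one of 19 interferon-stimulated genes that passed the test, and fell (log2 fold change -1.30, SE 0.278, adjusted p 0.0307).

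Lists close to the RAS pathway held no called gene in either fit, which at a background of 1.83% or 0.149% is not particular to lists of this length. Without replicate 2 the median of 17 ERK feedback and target genes was -0.04 and that of 19 RAS GTPase-activating proteins and kinases -0.02. SPRY4, a feedback inhibitor of RAS signalling, had 98.5, 96.6 and 105 CPM with both guides, 112 and 102 CPM in replicates 1 and 3 and 58.7 CPM in replicate 2 (log2 fold change -0.10, SE 0.108, adjusted p 0.7903). DUSP6, an ERK phosphatase, had 44.2, 42.6 and 41.1, 26.5 and 30.3 and 63.2 CPM (log2 fold change 0.58, SE 0.245, adjusted p 0.333), above replicates 1 and 3 in every both-guide library but short of the threshold. Among 11 genes of the EGF receptor family, the ligand AREG rose (357, 366 and 408, 230.3 and 217 and 569 CPM, log2 fold change 0.75, SE 0.115, adjusted p 0.00556). HES1, a Notch target, rose (9.99, 9.07 and 9.99, 3.69 and 4.83 and 15.1 CPM, log2 fold change 1.18, SE 0.262, adjusted p 0.0383). Of 15 interleukin and chemokine genes CXCL5 and CSF3 rose, and here replicate 2 was not past the both-guide range. CXCL5, a neutrophil chemokine, had 20.6, 26.9 and 24.1, 6.99 and 5.94 and 6.92 CPM (log2 fold change 1.88, SE 0.399, adjusted p 0.02897), and CSF3, the granulocyte growth factor, had 43.6, 44.1 and 49.8, 11.5 and 14.2 and 29.04 CPM (log2 fold change 1.83, SE 0.373, adjusted p 0.0234). F11R, JAM-A, rose beside JAM3 among 10 JAM, CADM and nectin genes (34.2, 32.5 and 29.5, 8.53 and 10.2 and 65.2 CPM, log2 fold change 1.77, SE 0.333, adjusted p 0.0158).

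The lists for proliferation, p53, ATF4, cholesterol synthesis, NRF2 and glycolysis also held no called gene, again near the background of 1.83%. NRF2 targets had a median of -0.48 without replicate 2, against 0.01 over all tested genes. Of the 14 members 0 were above 0, but none passed the test and the list was written with earlier results known. NQO1, a quinone reductase, had 799.99, 844 and 866 CPM with both guides, 1166 and 1161 CPM in replicates 1 and 3 and 368 CPM in replicate 2 (log2 fold change -0.48, SE 0.177, adjusted p 0.237). AKR1C2, an aldo-keto reductase, had 340.3, 376 and 362, 848 and 1034 and 184 CPM (log2 fold change -1.39, SE 0.461, adjusted p 0.177). In both genes the both-guide libraries lay between replicate 2 and replicates 1 and 3. MKI67, a marker of dividing cells, had 774, 728 and 695, 646 and 722 and 785 CPM (log2 fold change 0.09, SE 0.211, adjusted p 0.915), with overlapping groups.

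Marker lists moved with the split between guide 2 libraries. The 8 basal mammary markers summed to 3269 to 3587 CPM with both guides, 2568 and 2718 CPM in guide 2 replicates 1 and 3, and 11041 CPM in replicate 2, and all 8 were detected in the group with both guides. The 7 fibroblast markers summed to 232 to 257 CPM with both guides, 335 and 407 CPM in replicates 1 and 3 and 62.1 CPM in replicate 2. Nearly all of that sum was DCN, decorin, while COL3A1 and DPT stayed at or below 0.0535 CPM in all 6 libraries. Of the 6 leukocyte markers, CD3E was at 0 and PTPRC at most 0.0542 CPM in all 6 libraries; the sum, 4.09 to 6.66 CPM, was almost wholly CD14. The 5 endothelial markers summed to 5.90 to 6.60 CPM with both guides, 7.10 and 9.84 CPM in replicates 1 and 3 and 2.92 CPM in replicate 2, with CDH5 and TIE1 at most 0.0434 CPM. The 9 luminal markers summed to 363 to 383 CPM, 344 to 347 CPM and 284 CPM in the same order, mostly KRT8 and KRT18, with PGR and ELF5 at 0. The labelled epithelial type thus has its basal markers in all 6 libraries, except that TP63 had 0.0542 and 0.0723 CPM in guide 2 replicates 1 and 3. The part of other cells in the results was not tested, and in these bulk libraries fewer cells of a type and less RNA per cell cannot be told apart.

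The same genes are set beside the comparisons that share these libraries. In the fit of 15 libraries, 48 genes changed between both guides and guide 1 (0.275% of those tested), and 7 between guide 1 and guide 2 (0.0401%). Without guide 2 replicate 2 these were 813 (4.55%) and 29 (0.162%). Both comparisons share libraries with the one described here. C9orf64 had a log2 difference of 6.59 (adjusted p 7.67e-07) for both guides minus guide 1 and -1.73 (adjusted p 0.317) for guide 1 minus guide 2. JAM3 had 6.02 (adjusted p 7.67e-07) and -3.55 (adjusted p 0.000435) in the same order, with the guide 1 libraries at 0.115, 0.07597 and 0.111 CPM, the lowest of the 3 edited genotypes. For NF1 these were -0.76 (adjusted p 0.00411) and 0.69 (adjusted p 0.0121), with 43.6, 47.3 and 51.3 CPM in the guide 1 libraries. ICAM1 had 0.10 (adjusted p 0.833) and 1.15 (adjusted p 0.07295), and its guide 1 libraries, at 13.7, 12.8 and 12.98 CPM, were close to those with both guides. CDH1 was at 0.0191, 0.152 and 0.158 CPM in guide 1 libraries, near 0 like guide 2 replicates 1 and 3. Among unedited cells, CDH1 had 44.1 to 127 CPM with the empty vector and 1.79 to 42.9 CPM in parental cells, where parental replicate 2 was the lowest. Levels of CDH1 thus also varied widely within the parental genotype.

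The number of called genes moved little with the scaling and more with the test and the libraries fitted. With RLE scaling the counts were 27 with replicate 2 and 344 without it. DESeq2 called 143 and 735 genes, and voom with sample quality weights 2650 and 3033. In the voom fit with all 15 libraries, replicate 2 received a weight of 0.0518, the lowest of all libraries, against 0.996 to 3.42 for the other compared libraries. Restricting the fit to the compared groups gave 2 genes with replicate 2, C9orf64 and NEO1, and 2665 without it. C9orf64 was called with replicate 2 in each of these fits.

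**Figure D5:**
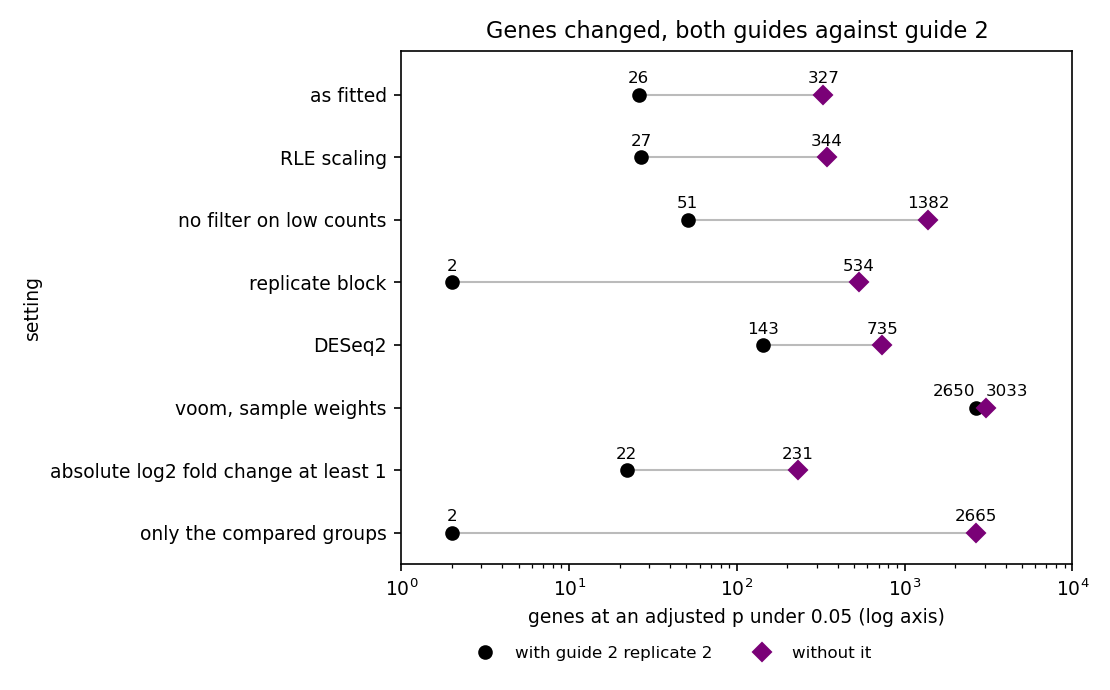
Genes called between both guides and guide 2 (log axis) under 8 settings, with guide 2 replicate 2 (circles) and without it (diamonds). The count is higher without replicate 2 in every setting, from 26 to 327 as fitted and from 2650 to 3033 with sample weights.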

How the data were processed

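Poly(A) RNA of 15 MCF-10A libraries was sequenced, 3 labelled biological replicates for each of 5 genotypes; 6 libraries, of cells with guides 1 and 2 and cells with guide 2, are compared here. The authors deposited raw counts of reads per gene with Ensembl identifiers, and a table of CPM that equals those counts scaled to the library total. Per the submitters' processing notes, Trim Galore 0.6.0, STAR 2.7.8a and GRCh38 were used. Which program and annotation did the counting, and with what strand setting, is not given in the sources used here. All columns were matched to a library by name (0 left unmatched). Symbols were found for 42009 of 60721 identifiers, and positions come from GENCODE on GRCh38.

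Counts were tested with edgeR 4.0.16 in R 4.3.3: filterByExpr by genotype, TMM scaling, 1 group-means quasi-likelihood fit over all 15 libraries (10 residual degrees of freedom), two-sided, Benjamini-Hochberg adjustment over all tested genes, threshold 0.05. The same fit without guide 2 replicate 2 used 14 libraries. The SE is the size of the log2 fold change over the root of the F statistic. The procedure was tested on simulated data, in which no library was set apart from its group as guide 2 replicate 2 is here. For NF1, scipy 1.17.1 gave an exact permutation p. Log2 CPM used the TMM-adjusted total of the tested genes and a prior count of 2. A gene at 3 counts had 0.0434 to 0.0650 CPM in the compared libraries. Intervals of count rates are 95% exact and cover counting error only, as PCR copies of a molecule were not marked. Promoter bases come from RefSeq.

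Named genes are NF1; genes called with all libraries, up to 15 in each direction; the 10 highest and 10 lowest called without guide 2 replicate 2; the 10 highest and 10 lowest in that library; and list members. Ranked genes had an average log2 CPM of 1 or more; names outside the rule are given as chosen after seeing values. Values of a few genes that these rules name are not reported here. The groups compared and the gene lists were chosen with earlier results of these data known. Alternatives were RLE scaling, no filter, a replicate block, DESeq2 1.42.0, voom with sample quality weights in limma 3.58.1, an absolute log2 fold change of at least 1, only the compared groups, and each library left out. Python 3.11.15 and matplotlib 3.10.9 were used for summaries and plots.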

Additional observations from a re-analysis of the deposited data

How the results depend on the processing

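The number of genes changed between both guides and guide 2 was 26, and moved by over 1.5 times under most alternatives: 51 with no filter on low counts, 143 with DESeq2, 2650 with voom and sample quality weights, 2 with only the 6 compared libraries, and 2 to 327 with each library left out in turn. The 327 came without guide 2 replicate 2. From that count of 327, the number became 1382 with no filter, 735 with DESeq2, 3033 with voom and sample quality weights, 2665 with only the compared groups, and 28 to 153 with a further library left out; these except the fit of the compared groups alone were chosen after seeing the data. Both guides against guide 1, with 48 genes, gave 82 with no filter and 813 without guide 2 replicate 2; guide 1 against guide 2, with 7 genes, gave 23 and 29. RLE scaling, and asking for a fold change of at least 1 on the log2 scale, kept the number of 26 within 1.5 times (27 and 22).

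Of the 20 genes highest or lowest without guide 2 replicate 2, 7 changed sign when it was included. They were CDH1 to -0.71, COL17A1 to -0.41, DSC3 to -0.66, DSG3 to -0.71, ESRP1 to -1.31, FAT2 to -1.92 and TP63 to -1.39. All had an edgeR adjusted p of at least 0.965. Other list genes named without replicate 2 were not part of this count. Over 364 alternative values of the 26 genes, none changed sign and 169 lost the call.

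Among the compared libraries, deviations from the group mean correlated at -0.0109 on average for same-numbered libraries (-0.0625 to 0.0172, 3 pairs), against 0.0055 for other pairs. Such deviations add up to 0 within a group, which ties the 2 averages to each other, and guide 2 replicate 2 lay far from its group. The check thus cannot exclude that replicate numbers pair the libraries. With the replicate number as a block, 2 genes were called with all libraries and 534 without guide 2 replicate 2. Both guides against guide 1 gave 20 genes with the block. None of the 20 genes highest or lowest without replicate 2 lost the call under the block. The cause of these differences was not tested. Levels under 3 counts cannot be told from 0 at this depth, and fitted fold changes of such genes depend on the prior count and are no bound.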
